A study of Mus musculus with 9 samples.

Results

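The genes described are 7 basic leucine zipper (bZIP) transcription factors of the AP-1 group and its relatives, chosen by name from the deposited table: Fos and Fosl1 (FOS-type), Jun, Junb and Jund (JUN-type), Atf3 and Maff. All 7 are among the 6462 genes of the table, and all 7 had a mean of at least 1 FPKM (fragment number scaled by transcript length and by library size), the level above which 5643 genes were tested. RNA was sequenced from BV2 cells, an immortalised mouse microglial line, after 1 h or 12 h of lipopolysaccharide (LPS, a Gram-negative bacterial membrane component sensed by Toll-like receptor 4) at 200 ng/ml, and from BV2 cells with no LPS, labelled 0 h. Each group had 3 libraries, 9 in all, and no group carried a stated genetic change. Whether separate cultures gave the 3 libraries of a group is not stated in the labels, and the p-values therefore reflect how these libraries vary, which may be technical only. No cells without LPS were sampled at 1 h or 12 h, so the effects of LPS and of time in culture cannot be told apart.

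AP-1 is a dimer of leucine zipper proteins. JUN-type proteins can pair with each other or with FOS-type proteins, whereas FOS-type proteins need a JUN-type partner to bind DNA well, and the dimer binds the TPA response element, TGACTCA. Many of these genes are immediate early genes, switched on without new protein synthesis and limited by unstable mRNA and by feedback on their own promoters. ATF3 is a stress-induced member of the ATF/CREB family that pairs with JUN-type proteins and is known in macrophages for restraining genes induced through Toll-like receptors. MAFF is a small MAF protein, which has a leucine zipper but no activation domain of its own and works as a partner of CNC factors such as NRF2 or as a repressing dimer.

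Promoter sequence is shown for 4 members. Of these, Jun, Junb and Maff shared a rise at 1 h and a fall by 12 h, and Fos did not. Each sequence is the stretch of 150 bases that ends just before a RefSeq gene start on mouse build GRCm38.p6. It is written 5′ to 3′ on the gene's strand. Capitals mark the cAMP response element TGACGTCA, its variant TGACATCA, its core TGACG (which also lies inside the full element) or a TATA box (TATAAA or TATATA).
Fos, chr12:85473740-85473889, plus strand: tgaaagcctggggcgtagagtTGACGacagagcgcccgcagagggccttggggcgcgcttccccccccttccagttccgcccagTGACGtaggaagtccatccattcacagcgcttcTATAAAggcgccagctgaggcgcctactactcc
Jun, chr4:95052223-95052372, minus strand: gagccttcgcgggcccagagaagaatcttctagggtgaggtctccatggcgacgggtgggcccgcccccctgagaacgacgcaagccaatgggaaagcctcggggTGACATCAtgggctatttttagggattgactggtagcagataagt
Junb, chr8:84978749-84978898, minus strand: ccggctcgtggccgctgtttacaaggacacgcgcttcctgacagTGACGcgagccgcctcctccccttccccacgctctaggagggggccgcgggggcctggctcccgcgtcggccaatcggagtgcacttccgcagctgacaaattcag
Maff, chr15:79347370-79347519, plus strand: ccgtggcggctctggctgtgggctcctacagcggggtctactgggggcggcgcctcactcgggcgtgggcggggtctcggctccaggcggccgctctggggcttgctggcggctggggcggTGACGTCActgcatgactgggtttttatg
The Fos window held TGACG from base -129 to -125 and from -66 to -62, counted back from the gene start, and TATAAA from -33 to -28. The Jun window held TGACATCA from -45 to -38, a sequence known from the Jun promoter as a site for JUN and ATF2 dimers, and the Junb window held TGACG from -106 to -102. The Maff window, which ends at 1 of 3 listed starts of that gene and lies within the gene's GENCODE span in no exon, held the full TGACGTCA from -29 to -22. Of the other Maff windows, the one before base 79346621 held none of the motifs searched, and the one before base 79348402 held TGACATCA from -45 to -38, TGACG on the opposite strand and a kappaB motif, which stood in 2.38% of all windows. Both strands were searched, and over all 32851 RefSeq windows of this length TGACG stood in 13.3%, TGACATCA in 2.32%, TGACGTCA in 1.36% and a TATA box in 9.48%. TGACTCA or TGAGTCA stood in 2.84% of all windows and in none of those read for the members. The Jund window, not printed, held none of the motifs searched. It ends before base 70697739, upstream of the GENCODE start of Jund at 70698949. That of Atf3, also not printed, held only TGACG on the opposite strand, from -7 to -3. It ends at a start at base 191183333, within the gene's GENCODE span, which begins at 191218039 on the minus strand, and overlaps 1 annotated exon. The sequence before these GENCODE starts of Jund and Atf3 was not read. The RefSeq table matched 6 of 7 members, and Fosl1 is named only.

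At 1 h of LPS, 6 of the 7 genes rose and Fos fell. At 12 h, all 7 were above untreated cells, but their order had changed: Junb, Jun, Jund, Atf3 and Maff had come down from their 1 h level while Fosl1 and Fos were at their highest. The Fos differences from untreated cells were small at both times, and each call was lost in some of the alternatives given below. Calls were made with limma on log2(FPKM + 1) at a Benjamini-Hochberg adjusted p under 0.05 over the tested genes. Among all tested genes, 24.1% rose and 34.9% fell at 1 h, 41.1% rose and 40.6% fell at 12 h relative to untreated cells, and 41.9% rose and 43.6% fell at 12 h relative to 1 h. The table had been limited to genes selected on these same libraries (94.3% passed the limma F test over the groups, as did all 7 members), so each count of calls is to be read against these shares. A rise of at least 1 on the log2 scale at 1 h occurred in 2.16% of tested genes and in 6 of the 7 members. At 12 h such a rise over untreated cells occurred in 4.54% of tested genes and in 2 members, Fosl1 and Maff, and a fall of at least 1 relative to 1 h occurred in 2.16% of tested genes and in 4 members, Jun, Junb, Atf3 and Maff.

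**Figure D1:**
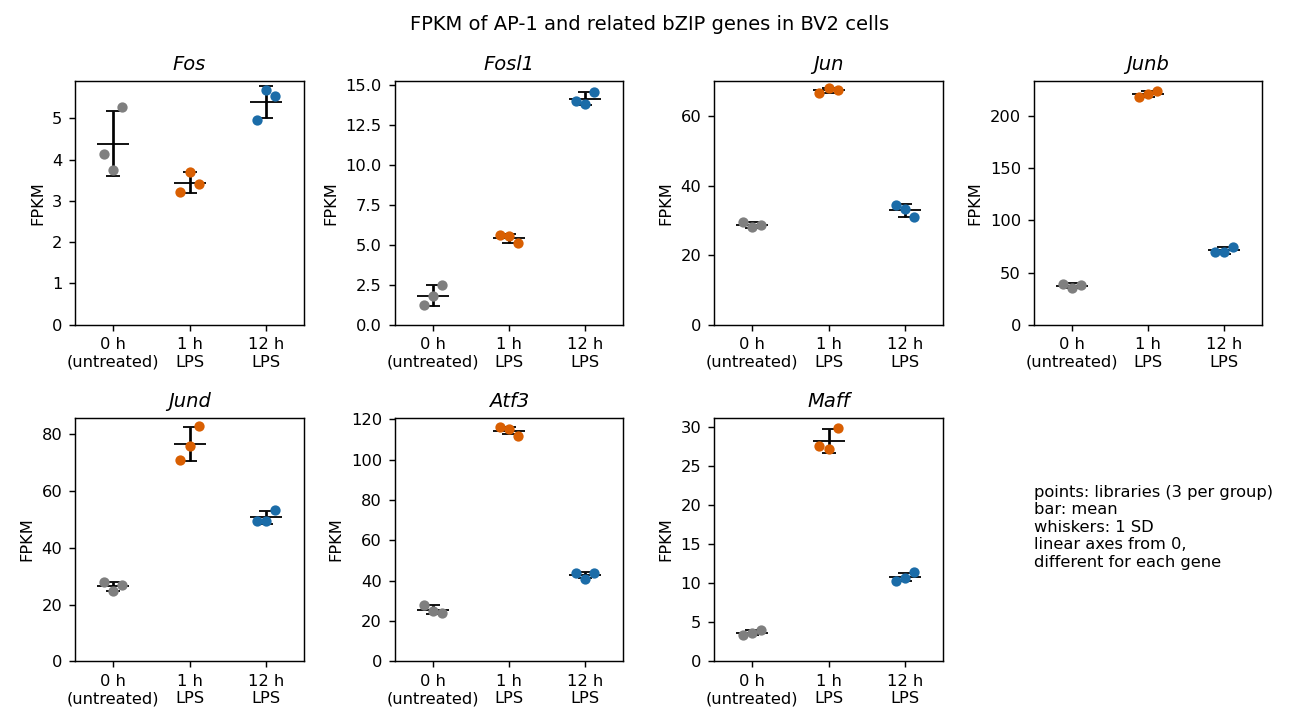
FPKM (linear axis from 0, different for each gene) of the 7 genes in untreated cells and at 1 h and 12 h of LPS, with points for the 3 libraries of a group, bars for means and whiskers for 1 SD. Junb averages 221 FPKM at 1 h, Fosl1 climbs through both times to 14.2 FPKM, and Fos stays between 3.21 and 5.68 FPKM throughout.

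Among the JUN-type genes, all 3 rose at 1 h, Junb by most. Jun, the founding AP-1 subunit and a strong transactivator, lies on chromosome 4 (95049034 to 95052222, minus strand, in GENCODE on GRCm38) as a gene of 1 exon. It had 29.5, 28.0 and 28.6 FPKM in untreated cells, 66.7, 68.0 and 67.7 at 1 h, and 34.5, 33.2 and 31.0 at 12 h. The 3 libraries at 1 h stood far above the other 6, and the 12 h libraries lay a little above the untreated ones with no overlap. The log2 difference from untreated cells was 1.21 (SE 0.0384, adjusted p = 2.28e-12) at 1 h and 0.19 (adjusted p = 0.000363) at 12 h, and with quantile normalization the 12 h difference was 0.10 (adjusted p = 0.025). Between 12 h and 1 h it was -1.02 (adjusted p = 9.84e-12). In plain FPKM the mean was 2.35 times the untreated mean at 1 h and 1.15 times at 12 h, so 10.8% (SE 2.86) of the 1 h increase was still present.

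Junb, a JUN-type subunit that can oppose Jun at some targets, lies on chromosome 8 (84974484 to 84978718, minus strand). Its FPKM were 38.9, 34.8 and 38.4 in untreated cells, 218, 221 and 224 at 1 h, and 69.3, 69.4 and 74.8 at 12 h. The groups were widely separated, with the 12 h libraries in the middle. The log2 difference from untreated cells was 2.53 (SE 0.0415, adjusted p = 9.38e-16) at 1 h, the second largest of the 7 genes after Maff, and 0.91 (adjusted p = 5.91e-11) at 12 h. From 1 h to 12 h the difference was -1.62 (adjusted p = 1.47e-13), the largest fall of the 7, and 18.4% (SE 1.16) of the FPKM gained at 1 h was kept.

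Jund, usually described as the more constitutive JUN-type gene, lies on chromosome 8 (70698949 to 70700616, plus strand) as a single exon. It measured 27.9, 24.8 and 26.8 FPKM in untreated cells, 71.0, 75.7 and 82.8 at 1 h, and 49.3, 49.3 and 53.4 at 12 h. Again the groups did not overlap, and the 1 h libraries were the most spread. The log2 difference from untreated cells was 1.49 (SE 0.0544, adjusted p = 1.08e-11) at 1 h and 0.91 (adjusted p = 1.17e-09) at 12 h, close to that of Junb at 12 h. Relative to 1 h it was -0.58 (adjusted p = 1.81e-07) at 12 h, the smallest fall of the 5 genes that fell, and Jund kept 48.3% (SE 4.39) of its 1 h increase. In bulk RNA, fewer cells making a transcript and less of it per cell cannot be told apart, here and for each gene below.

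The FOS-type genes went different ways. Fos, the classic serum-induced partner of Jun, lies on chromosome 12 (85473890 to 85477273, plus strand). It had 4.14, 3.75 and 5.28 FPKM in untreated cells, 3.21, 3.71 and 3.41 at 1 h, and 4.95, 5.68 and 5.53 at 12 h. All 1 h libraries were below all untreated ones by a narrow margin, while 1 untreated library lay among the 12 h values. The log2 difference was -0.27 (SE 0.0862, adjusted p = 0.0153) at 1 h and 0.25 (adjusted p = 0.014) at 12 h relative to untreated cells, and 0.52 (adjusted p = 5.53e-05) at 12 h relative to 1 h. The calls against untreated cells were lost when untreated replicate 3 (1 h, -0.15, adjusted p = 0.0783), 1 h replicate 1 (1 h, -0.23, adjusted p = 0.0619), untreated replicate 2 (12 h, 0.17, adjusted p = 0.083) or 12 h replicate 2 (12 h, 0.22, adjusted p = 0.0502) was left out. The lowest Fos value, 3.21 FPKM at 1 h, corresponds to roughly 180 fragments, a counting error near 7.4%. This rests on a rough depth estimate of 27000000 fragments per library. No time before 1 h or between 1 h and 12 h was sampled.

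Fosl1, which encodes FRA-1 and has no strong activation domain of its own, lies on chromosome 19 (5447547 to 5455946, plus strand). It was the one gene of the 7 to rise by more than 1 log2 unit between 1 h and 12 h. Its FPKM were 1.22, 1.78 and 2.49 in untreated cells, 5.6, 5.56 and 5.10 at 1 h, and 14.0, 13.8 and 14.6 at 12 h. The groups stepped up in order without overlap, and the untreated libraries were the most spread relative to their level. The log2 difference from untreated cells was 1.21 (SE 0.111, adjusted p = 5.2e-07) at 1 h and 2.45 (adjusted p = 6.02e-11) at 12 h, and it was 1.24 (adjusted p = 1.23e-07) between 12 h and 1 h. The pseudocount of 1 understates the change of a gene this low: in plain FPKM the mean was 2.96 times the untreated mean at 1 h and 7.75 times at 12 h. The lowest untreated value corresponds to roughly 61 fragments, a counting error near 13%, from a rough depth estimate of 27000000 fragments per library.

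Atf3, on chromosome 1 (191170296 to 191218039, minus strand), followed the JUN-type course. It had 28.1, 25 and 23.8 FPKM in untreated cells, 116, 115 and 112 at 1 h, and 43.9, 41.0 and 43.9 at 12 h. No 2 groups overlapped, and the 1 h libraries differed by only a few FPKM. The log2 difference from untreated cells was 2.12 (SE 0.0492, adjusted p = 5.67e-14) at 1 h and 0.72 (adjusted p = 4.79e-09) at 12 h, and the change from 1 h to 12 h was -1.39 (adjusted p = 4.71e-12). Atf3 kept 19.5% (SE 1.61) of its 1 h increase, beside 18.4% for Junb. Its 1 h rise was smaller than that of Junb (2.12 against 2.53 on the log2 scale).

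Maff, on chromosome 15 (79346621 to 79359076, plus strand), rose most at 1 h. Its FPKM were 3.42, 3.61 and 4.0 in untreated cells, 27.5, 27.1 and 29.8 at 1 h, and 10.3, 10.6 and 11.4 at 12 h. The 3 groups were well apart. The log2 difference from untreated cells was 2.64 (SE 0.0547, adjusted p = 1.51e-14) at 1 h and 1.33 (adjusted p = 1.91e-11) at 12 h, and it was -1.31 (adjusted p = 2.64e-11) between 12 h and 1 h. In plain FPKM the mean was 7.65 times the untreated mean at 1 h and 2.93 times at 12 h, and 29.0% (SE 1.7) of the increase was kept.

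**Figure D2:**
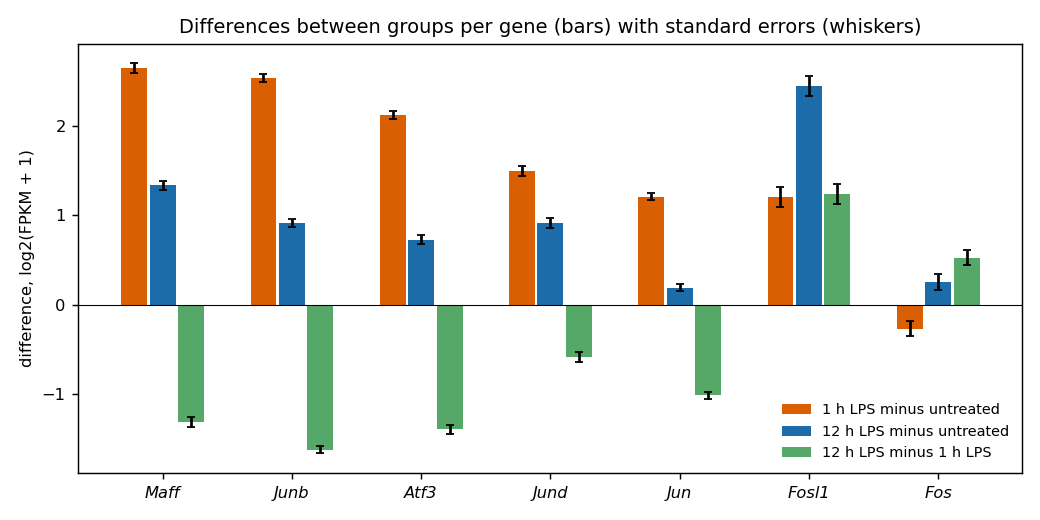
Log2 differences of the 7 genes on the log2(FPKM + 1) scale for each of the 3 contrasts (bars), with standard errors (whiskers). The 1 h differences run from -0.27 for Fos to 2.64 for Maff, while at 12 h relative to 1 h Fosl1 (1.24) and Fos (0.52) lie above 0 and the other 5 lie below it.

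A course that was higher at 1 h than in untreated cells and lower at 12 h than at 1 h was found in 706 genes, 12.5% of those tested, and in 5 of the 7 members. Still higher at 12 h than in untreated cells after such a course were 178 genes, 3.15% of those tested, and the same 5 members: Jun, Junb, Jund, Atf3 and Maff. The members were picked with earlier results of these data known, so these counts describe them and are no test.

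The order of the levels in FPKM, which is scaled by transcript length, shifted with time. Levels of different genes can be compared only roughly. It is unclear which build the values rest on, and strand use in counting is not given. In untreated cells Junb was highest by mean, followed by Jun, Jund, Atf3, Fos, Maff and Fosl1. The untreated range of Atf3 overlapped those of both Jund and Jun, and that of Fos overlapped that of Maff. At 1 h the ranges of all 7 genes were separate, in the order Junb, Atf3, Jund, Jun, Maff, Fosl1 and Fos. At 12 h they were separate again, in the order Junb, Jund, Atf3, Jun, Fosl1, Maff and Fos. Fosl1 thus passed Fos by 1 h and Maff by 12 h.

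Shares within each family, which do not depend on how a library was scaled, moved too. The summed FPKM of Jun, Junb and Jund was 92.6 ± 4.46 in untreated cells, 365.1 ± 9.55 at 1 h and 154.7 ± 3.92 at 12 h (SD, n = 3 each). Junb made up 60.6 ± 0.719% of that sum at 1 h, against 40.4 ± 0.627% in untreated cells, a difference of 20.2 percentage points. Jun made up 18.5 ± 0.37% at 1 h, against 31.0 ± 0.82% in untreated cells, and was at 21.3 ± 1.63% at 12 h. Jund was at 20.9 ± 1.07% at 1 h, against 28.6 ± 0.355% in untreated cells, and at 32.7 ± 0.717% at 12 h. Each of the Junb, Jun and Jund differences between 1 h and untreated cells was without overlap, and gave an exact two-sided permutation p = 0.1, the smallest that 3 libraries against 3 allow.

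For the FOS-type sum, the family's other members in the table were counted as well: Fosl2 (FRA-2), at 3.19 ± 0.123, 9.72 ± 0.319 and 5.65 ± 0.43 FPKM in untreated, 1 h and 12 h libraries, and Fosb, at 0.122 ± 0.033, 0.439 ± 0.248 and 0.0313 ± 0.00583 FPKM (SD, n = 3 each), too low to pass the filter. The FOS-type sum was 9.53 ± 1.47, 19.0 ± 0.45 and 25.2 ± 0.998 FPKM at 0 h, 1 h and 12 h. At 12 h Fosl1 held 56.2 ± 1.59% of it, against 18.9 ± 4.21% in untreated cells, a difference of 37.3 points, while at 1 h the largest share was that of Fosl2, at 51.1 ± 0.656%, against 33.8 ± 3.62% in untreated cells. Fos held 18.1 ± 0.938% at 1 h and 21.4 ± 1.07% at 12 h, against 46.0 ± 2.75% in untreated cells. The leading FOS-type transcript was therefore Fos in untreated cells, Fosl2 at 1 h and Fosl1 at 12 h, and each of these share differences had the smallest exact permutation p possible here, 0.1. The FOS-type sum divided by the JUN-type sum was 0.103 ± 0.0154 in untreated cells, 0.0521 ± 0.0011 at 1 h and 0.163 ± 0.00417 at 12 h, so the summed JUN-type FPKM exceeded the FOS-type sum in every group.

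**Figure D3:**
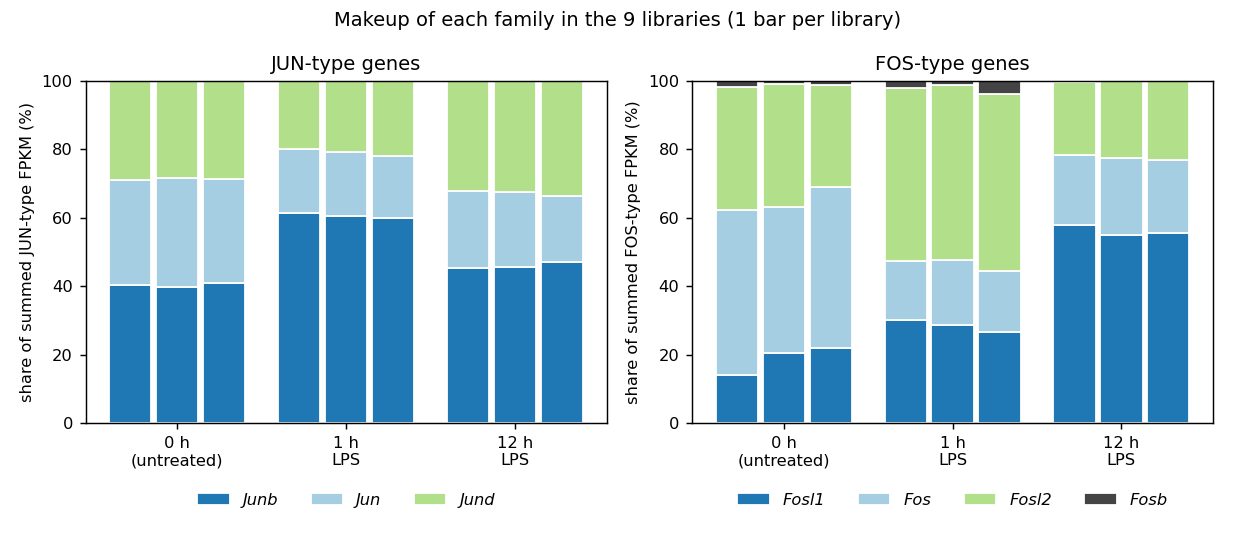
Share of each gene in the summed FPKM of the JUN-type genes and of the FOS-type genes, in percent, as 1 stacked bar for each library of untreated cells and of 1 h and 12 h of LPS. Junb takes 60.6% of the JUN-type sum at 1 h on average, and Fosl1 takes 56.2% of the FOS-type sum at 12 h.

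Ratios of 2 members within a library were compared as log2 of FPKM + 1, in 18 exact permutation tests (6 ratios in 3 contrasts), where the smallest p of 0.1 becomes 0.129 after Benjamini-Hochberg adjustment. Junb over Jund was 1.52 ± 0.0893 at 1 h, against 0.48 ± 0.0226 in untreated cells, and back at 0.483 ± 0.00292 at 12 h (SD, n = 3 each). The 12 h and untreated ratios overlapped, with a difference of 0.0028 (exact permutation p = 0.9). For Maff over Junb the pseudocount mattered. With it, the ratio was -2.93 at 1 h, against -3.04 in untreated cells, a difference of 0.11 with overlapping libraries (exact permutation p = 0.3). In plain FPKM, an alternative added after seeing the data, it was -2.98 at 1 h, against -3.35 in untreated cells, a difference of 0.37 with no overlap (exact permutation p = 0.1). At 12 h Maff over Junb was higher than in untreated cells by 0.42 with the pseudocount and by 0.62 in plain FPKM, with no overlap either way. Fosl1 over Fos was 0.53 at 1 h and 1.25 at 12 h, against -0.94 in untreated cells, and the libraries did not overlap at either time. Atf3 over Maff was 1.99 at 1 h and 1.90 at 12 h, against 2.51 in untreated cells, and the 12 h and 1 h libraries overlapped (difference -0.08, exact permutation p = 0.2). Junb over Jun, at 1.70 at 1 h against 0.37 in untreated cells, was also without overlap. Atf3 over Junb was -0.94 at 1 h and -0.72 at 12 h, against -0.53 in untreated cells. Its 1 h libraries overlapped neither other group, while the 12 h and untreated libraries overlapped (difference -0.19, exact permutation p = 0.2).

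For each gene, the tested genes with a mean of at least 5 FPKM (4426 in all) whose 9 log2 values, centred on the untreated mean, lay closest by Euclidean distance were found. Junb had Dusp2 (distance 0.355) and Dusp1 (0.359), both phosphatases that switch off MAP kinases, as its nearest, and Jund had Dusp16 (0.351), another of that family, and Slc20a1 (0.48), a phosphate transporter. Dusp1 was at 18.4 FPKM at 1 h and 5.48 at 12 h, against 2.70 in untreated cells. For Maff it was Tnfaip3 (0.367), encoding the ubiquitin-editing inhibitor A20, and Zc3h12c (0.544). Nearest to Jun were Chka (0.204) and the interferon regulatory factor Irf1 (0.248), to Atf3 Trim13 (0.318) and Sdc4 (0.327), and to Fos Zfp346 (0.295) and Apobr (0.299). Fosl1 had more distant neighbours, Socs3 (0.67), a feedback inhibitor of cytokine signalling, and Ehd1 (0.709). The distance counts single libraries, so the spread of the untreated Fosl1 libraries (1.22, 1.78 and 2.49 FPKM) adds to it. How much it adds was not tested. Within the 7 genes, Junb and Maff were nearest each other at 0.771, then Atf3 and Junb at 0.817, and Fosl1 was at 2.77 from its nearest, Jund.

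Of 46 other bZIP genes listed by family, 36 were in the table and 30 were tested. At 1 h, 13 rose, 10 fell and 7 missed the threshold. The median log2 difference was 0.06, beside -0.03 over all tested genes. At 12 h relative to untreated cells, 17 rose and 11 fell, with a median of 0.17 beside 0.03. At 12 h relative to 1 h, 13 rose and 13 fell. Fosl2 rose by 1.36 (limma adjusted p = 3.09e-11) at 1 h and stood 0.67 above untreated cells at 12 h (adjusted p = 3.25e-08), a course like that of the JUN-type genes. Without the filter on level, Fosb rose by 0.35 (SE 0.0931, adjusted p = 0.0105) at 1 h on the log2(FPKM + 1) scale, which shrinks so low a gene. Its 1 h libraries were at 0.369, 0.233 and 0.715 FPKM, against 0.149, 0.0855 and 0.132 FPKM in untreated cells, and without 1 h replicate 3 the difference was 0.21 (adjusted p = 0.00387).

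The partner families divided. Both other small MAF genes rose at 1 h, Mafk by 0.62 (limma adjusted p = 1.51e-07) and Mafg by 0.22 (adjusted p = 0.000178), less than Maff in size, whereas Maf, a large MAF gene with its own activation domain, fell at 1 h, with a log2 difference of -0.49 (adjusted p = 5.4e-05). Nfe2l2, encoding the small MAF partner NRF2, rose by 1.18 (adjusted p = 2.79e-13) at 1 h, at 160.8 FPKM against 70.4 in untreated cells, and was below untreated cells at 12 h (62.4 FPKM, -0.17, adjusted p = 0.00016). Of the 3 tested CNC and BACH genes, 2 were lower and 1 higher than untreated cells at 12 h. The higher one was Nfe2l1, at 41.6 FPKM against 17.6 in untreated cells (log2 difference 1.20, adjusted p = 3.54e-12). Jdp2, the closest relative of Atf3, went the other way from Atf3: it fell by 0.19 (adjusted p = 0.0056) at 1 h and stood 0.92 above untreated cells (adjusted p = 4.96e-10) at 12 h. The stress genes Atf4 and Ddit3 stood 1.26 and 1.78 above untreated cells at 12 h. Cebpd, of the C/EBP family, reached 43.1 FPKM at 12 h against 7.32 in untreated cells (log2 difference 2.40, adjusted p = 2.17e-14). The Fosl1 rise was 2.45 on the same log2(FPKM + 1) scale. That scale understates the change of Fosl1 more, because its untreated mean was lower (1.83 FPKM), so the 2 sizes are not directly comparable.

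**Figure D4:**
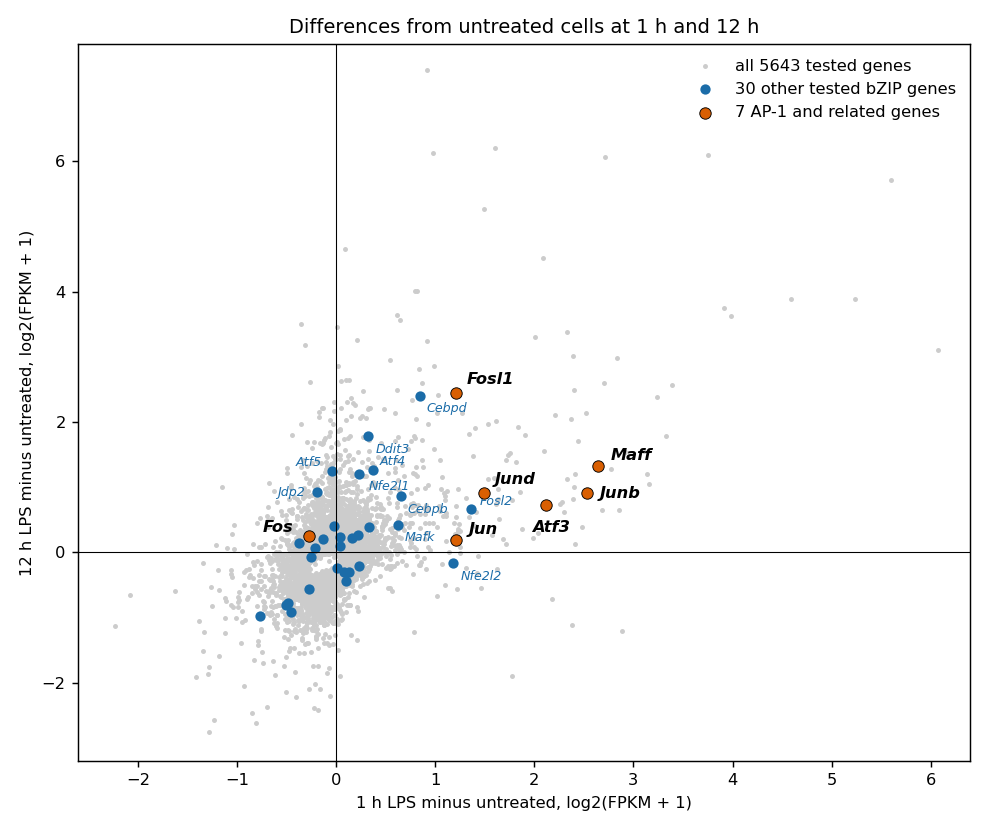
Log2 difference from untreated cells at 1 h (x axis) and at 12 h (y axis), on the log2(FPKM + 1) scale, for 5643 tested genes, with 30 other bZIP genes and the 7 members marked. Fosl1 (1.21 at 1 h, 2.45 at 12 h) is higher at 12 h than at 1 h, as is Fos, whereas the other 5 members are higher at 1 h.

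Overlapping genes limit what FPKM can assign where the counting did not use strand, which is not given in the sources used here. In GENCODE 5 of the 7 genes overlap a gene on the opposite strand: Junb (Prdx2), Fosl1 (Ccdc85b), Jun (Junos), Jund (Gm11175) and Atf3 (Gm24748). Junos, Gm11175 and Gm24748 were not analysed here, so levels can be set beside Junb and Fosl1 only. Prdx2 was at 82.6 ± 2.05 FPKM at 1 h and 68.9 ± 0.669 at 12 h, against 91.2 ± 3.45 in untreated cells, and Ccdc85b was at 5.23 ± 0.233 at 1 h and 4.64 ± 0.31 at 12 h, against 7.03 ± 0.179 in untreated cells, so both stood lower after LPS while Junb and Fosl1 stood higher. The libraries of a group correlated at 0.9981 to 0.9986 and those of different groups at 0.9241 to 0.9698 across tested genes. The table held 9 of 12 microglial markers, whose summed level was 1500 to 1543 FPKM at 1 h and 1481 to 1546 FPKM at 12 h, against 1575 to 1712 FPKM in untreated cells. Among markers of astrocytes, neurons, oligodendrocytes, endothelial cells and fibroblasts, 3 were listed: Olig2 at 0 in all LPS libraries and at 0 to 0.0841 FPKM in untreated cells, Aldoc at 25.2 to 25.9 FPKM at 1 h and 26.6 to 26.9 FPKM at 12 h, against 30.4 to 33.8 FPKM in untreated cells, and Flt1 at 15.2 to 16.5 FPKM at 1 h and 20.9 to 21.8 FPKM at 12 h, against 16.6 to 17.8 FPKM in untreated cells. The part of these 3 genes in the results was not tested. The table was limited to genes selected on these same libraries, so a marker missing from it may still be expressed.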

How the data were processed

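RNA from BV2 cells was extracted with TRIzol and made into libraries with a TruSeq Stranded mRNA kit, per the labels' protocols. Per the submitters' processing notes, Trimmomatic, HISAT2, Cufflinks, HTSeq and DESeq were used, with no version or role, and GRCh38, a human build, is named although the gene symbols are mouse, so it is unclear which build the values rest on. The authors deposited FPKM per gene in 9 libraries. Each gene also has a p-value, a q-value and a rank score, per the file headers, whose test is not given in the sources used here. The highest deposited q-value was 0.09993, so the listed genes were selected on these samples, and adjusted p-values are not a false discovery rate over the transcriptome. For Fos the deposited q-value (0.000336) lies below the deposited p-value (0.691), as it does for Fosl1. Neither column can therefore be read at face value. These columns called no gene.

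Genes with a mean of at least 1 FPKM were tested (5643, with 819 left out) on log2(FPKM + 1) with limma 3.58.1 in R 4.3.3, as 1 mean per group with eBayes trend, and p-values were adjusted by Benjamini-Hochberg over the tested genes. The pseudocount of 1 understates changes of low genes. Shares and ratios were compared within libraries by exact permutation tests (scipy 1.17.1, python 3.11.15), for which 3 against 3 allow p = 0.1 at the least. SE of the kept increase follows the delta method. The fit was tested on simulated data. The table has no counts, so depth is unknown apart from a rough estimate of 27000000 fragments (quartiles 22000000 and 34000000) from 8 genes with 1 transcript, covering counting error only.

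The members, lists and tests were chosen with earlier results of these data known. Named genes are all 7 members, bZIP genes of the lists, those with a log2 difference of at least 0.5 first, and 2 nearest genes per member. Alternatives were other pseudocounts and level filters, quantile and median-of-ratios scaling, array weights, eBayes with no trend, fits of 6 libraries, a replicate block and leaving out each library, and, chosen after seeing the data, ratios with no pseudocount, Fosb with each library left out, and adjustment over 21878 genes, the number implied by the deposited ranks. Positions are from GENCODE vM21 on GRCm38. Other genes were not analysed here, and 1 gene of the lists is not reported by name.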

Additional observations from a re-analysis of the deposited data

Results flagged for a closer look

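The difference between 12 h and 1 h of LPS passed the limma threshold for all 7 genes, in both directions. Most tested genes passed it too: 41.9% were higher and 43.6% lower at 12 h than at 1 h. With no untreated cells at 1 h or 12 h, this contrast cannot separate a change in the effect of LPS from time in culture. The difference was positive for Fosl1 (1.24 on the log2 scale) and Fos (0.52), which stood higher at 12 h than at 1 h. It was negative for Jun (-1.02), Junb (-1.62), Jund (-0.58), Atf3 (-1.39) and Maff (-1.31), which stood lower at 12 h than at 1 h. Single libraries were not tested for standing apart, because each group has 3.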

How the results depend on the processing

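Of 417 alternative values for single members, 410 kept their direction and their side of the threshold, and the other 7 were all for Fos. Its 1 h call was lost with quantile normalization (-0.18, adjusted p = 0.0974) and with adjustment over 21878 genes (adjusted p = 0.0595), and its 12 h call with the same adjustment over 21878 genes (adjusted p = 0.0542), as well as when certain libraries were left out. The cause was not tested. The 360 alternatives for the other 6 genes kept their calls. With a mean of at least 5 FPKM, Fos was not tested, and 6 of 6 members were called. Leaving out single libraries left 6 to 7 members called in both contrasts with untreated cells and 7 between 12 h and 1 h, and 20 alternatives gave 30 to 37, 40 to 52 and 35 to 48 genes of the lists in the 1 h, 12 h and 12 h against 1 h contrasts (36, 47 and 42 in the reported fits). The Junb share difference ranged from 19.86 to 20.58 points and that of Fosl1 from 34.9 to 38.9 points. With a pseudocount of 0.1, 7 of the log2 ratio differences moved by more than 1 SD: Fosl1 over Fos (1.90 at 1 h and 2.64 at 12 h against untreated cells), Maff over Junb (0.34 and 0.60, and 0.26 between 12 h and 1 h) and Atf3 over Maff (-0.75 at 1 h and -0.78 at 12 h). With no pseudocount the same 7 moved, to 1.96, 2.70, 0.37, 0.62, 0.25, -0.78 and -0.80. Libraries with the same number deviated together by a correlation of -0.0666 to 0.128, over 0.1 in 1 of 9 pairs, so the numbers were not taken as a pairing. The replicate block left all members called (7 in each contrast), and gave Fos -0.27 (adjusted p = 0.0104) at 1 h. No alternative turned a direction around among the called results.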

Other observations

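Among 15 textbook AP-1 targets, 11 were in the table and 9 were tested. At 1 h 5 rose, 2 fell and 2 missed the threshold, while 24.1% of all tested genes rose and 34.9% fell. The median log2 difference was 0.19, beside -0.03 over all tested genes. At 12 h relative to untreated cells 8 rose and 1 fell, with a median of 0.57 beside 0.03. Over all tested genes 41.1% rose and 40.6% fell in that contrast. Plau, the protease urokinase, was the one target lower at 12 h than in untreated cells: it was at 133.0 ± 5.42 FPKM at 1 h and 38.0 ± 0.0951 FPKM at 12 h, against 56.5 ± 1.63 FPKM in untreated cells (SD, n = 3 each), with log2 differences of 1.22 (limma adjusted p = 3.88e-13) and -0.56 (adjusted p = 1.31e-09). Its receptor Plaur stood at 51.2 FPKM at 1 h and 114.9 FPKM at 12 h, against 33.0 FPKM in untreated cells, a log2 difference of 1.77 (adjusted p = 3.83e-13) at 12 h. Mmp13, a collagenase, was at 1.87 FPKM at 1 h and 5.01 FPKM at 12 h, against 0.502 FPKM in untreated cells. Ccnd1, encoding cyclin D1, fell by 0.50 (adjusted p = 1.05e-08) at 1 h and rose by 0.35 at 12 h.

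Of the kinases and factors upstream, 2 of 10 listed MAP kinases, 5 of 7 MAP kinase kinases and 5 of 8 SRF and ternary complex factor genes were tested. Over all tested genes, 24.1% rose and 34.9% fell at 1 h, and 41.1% rose and 40.6% fell at 12 h relative to untreated cells. At 1 h 0 of the 2 MAP kinases passed, 2 MAP kinase kinases rose and 1 fell, and 1 SRF-group gene rose and 2 fell. At 12 h relative to untreated cells the counts were 1 MAP kinase higher, 3 kinase kinases higher and 1 lower, and 1 SRF-group gene higher and 4 lower. These counts concern transcripts, and kinase activity was not measured.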
